A study of Aconitum carmichaelii with 4 samples.

Results

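Of 128183 unigenes (assembled transcripts) of Aconitum carmichaelii, the study listed 4 as HMG-CoA synthase (HMGS). It kept only candidates above a set length and a set similarity to their best protein match. Shorter or less similar HMGS transcripts, if any, are therefore outside the HMGS sums and shares given here. The 4 unigenes came from 3 Trinity genes, the groups of related transcripts that the assembler forms. HMGS1 is TR19454|c0_g1_i1 with 571 bases, HMGS2 is TR40295|c3_g2_i3 with 909 bases, HMGS3 is TR40295|c3_g2_i1 with 1761 bases and HMGS4 is TR40318|c0_g1_i1 with 1992 bases. HMGS2 and HMGS3 are transcripts of the same Trinity gene. The 4 unigenes are all transcripts of these 3 Trinity genes, and the names rest on sequence similarity to proteins of other species. RNA was taken from flower, bud, leaf and root of plants aged 3 years that grew under natural conditions and had no treatment, and 1 library was sequenced for each. The sources used here do not give the number of plants in a library. There are no replicates, so no test between tissues was made, and the 95% intervals given beside values cover counting error only. The sequences of the unigenes were not used here.

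HMGS condenses acetyl-CoA with acetoacetyl-CoA to HMG-CoA in the cytosolic mevalonate (MVA) pathway. It acts after acetoacetyl-CoA thiolase (AACT) and before HMG-CoA reductase (HMGR), the step usually regarded as rate-limiting, and mevalonate is then converted by mevalonate kinase (MVK), phosphomevalonate kinase (PMK) and mevalonate diphosphate decarboxylase (MVDD) to isopentenyl diphosphate. Plants also make this isoprenoid precursor in plastids by the methylerythritol phosphate (MEP) pathway, and it is the building block of sterols and of the diterpenes from which aconitine-type alkaloids derive.

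The 4 libraries held between 4811266 assigned fragments in root and 7057551 in flower. The 10 most abundant unigenes took between 5.04% of the fragments in flower and 20.7% in leaf. Both photosystem II unigenes used to check the labels were higher in leaf, where their summed FPKM was 17.4, than in the other tissues, where it was at most 4.95 and where 1 of them was at 0 in root. The 3 FRUITFULL-like MADS-box unigenes did not mark flower, since their summed FPKM of 37.5 in flower was below the 116 in leaf, with 29.9 in bud and 20.7 in root.

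HMGS2 and HMGS3 were the bud-biased pair, at 55.2 and 50.4 times their root level by FPKM, values that rest on 3 and 9 root fragments and were 33.0 and 30.1 under edgeR's TMM factors, a scaling that limits the weight of a few abundant unigenes. HMGS4 was spread over all 4 tissues, lowest in root, and could not be told apart between flower and bud. HMGS1 could not be told apart between flower and bud either. Levels are given as FPKM, the fragments per kilobase of effective length and per fixed number of fragments in the library, with the fragment count behind each. In such bulk tissue, fewer cells that express a gene and less RNA per cell cannot be told apart.

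HMGS3, the longer transcript of its Trinity gene, had an FPKM of 12.19 in flower (137 fragments), 59.26 in bud (624 fragments), 4.41 in leaf (38 fragments) and 1.18 in root (9 fragments). Bud stood above every other tissue and the counting intervals of the 4 libraries did not overlap. The interval was 54.7 to 64.1 in bud and 10.2 to 14.4 in flower, against 3.12 to 6.05 in leaf and 0.538 to 2.23 in root. Among the 46663 unigenes with at least 20 fragments over the 4 libraries, the HMGS3 level exceeded that of 93.2% in bud and of 28.9% in root.

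HMGS2, the shorter transcript, had an FPKM of 7.65 in flower (40 fragments), 46.58 in bud (228 fragments), 3.49 in leaf (14 fragments) and 0.84 in root (3 fragments). Its tissues stood in the same order as those of HMGS3. The interval in bud, 40.7 to 53.0, lay clear of the others, but those of flower (5.47 to 10.4) and leaf (1.91 to 5.85) overlapped, as did those of leaf and root (0.174 to 2.47).

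HMGS4, the longest of the 4 unigenes, had an FPKM of 24.47 in flower (315 fragments), 28.11 in bud (339 fragments), 16.32 in leaf (161 fragments) and 6.96 in root (61 fragments). Flower and bud could not be told apart by counting error, with intervals of 21.8 to 27.3 and 25.2 to 31.3. By FPKM, leaf (13.9 to 19.0) lay below both and root (5.32 to 8.94) lay below leaf. Under TMM the flower to leaf ratio was 1.10, with an interval of 0.909 to 1.34 that includes equality. HMGS4 ranked high in every library, where it exceeded from 67.8% of the 46663 unigenes in root to 85.4% in bud.

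HMGS1, the shortest, was barely sampled. Its FPKM was 4.92 in flower (14 fragments), 4.14 in bud (11 fragments), 0.91 in leaf (2 fragments) and 0 in root, where no fragment was assigned. The exact upper limit in root was an FPKM of 1.91, and the floor of 3 fragments used in ratios equals 1.56. The flower and bud values overlapped almost entirely. In leaf the interval of 0.111 to 3.30 reached into that of flower, 2.69 to 8.26.

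**Figure D1:**
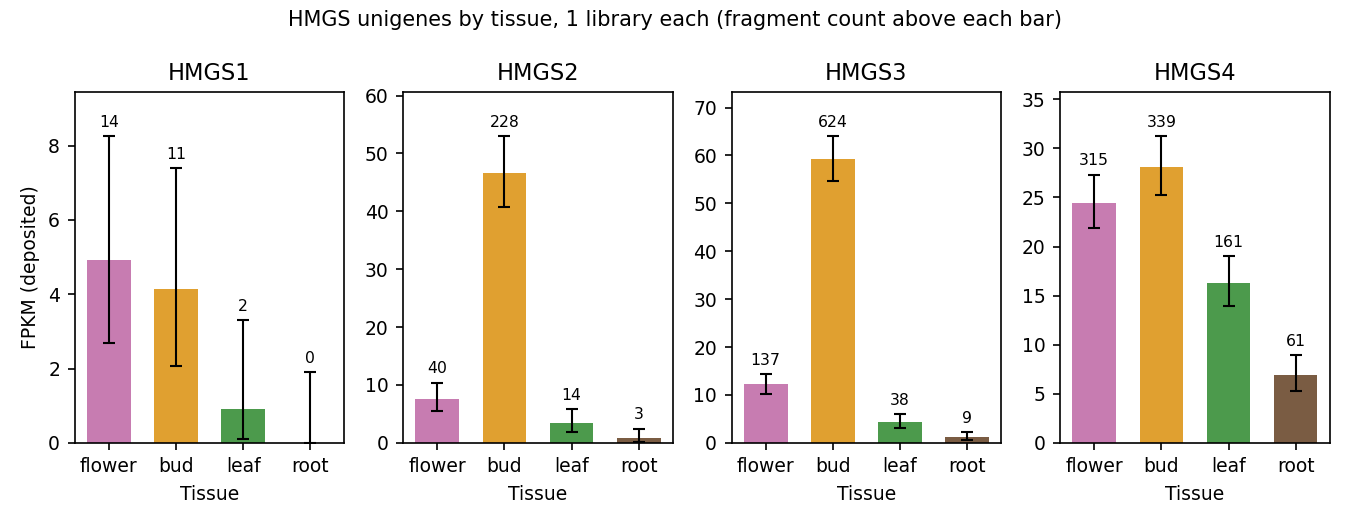
Deposited FPKM (vertical axis, a separate linear scale from 0 in each panel) of HMGS1 to HMGS4 in flower, bud, leaf and root, with 1 library per bar. Error bars are exact 95% Poisson intervals for counting error and the number above each bar is the fragment count; the bud bars of HMGS2 and HMGS3 (46.58 and 59.26) stand far above their other bars, while the flower and bud intervals of HMGS1 and of HMGS4 overlap.

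The comparison of bud with root gave the widest differences. In bud the level of HMGS2 was 55.2 times that in root (18.6 to 269.6), that of HMGS3 was 50.4 times (26.4 to 111) and that of HMGS4 was 4.04 times (3.07 to 5.40). The bud level of HMGS1 was 2.66 times the floor of 3 fragments in the root library, and the exact lower limit of its ratio, from 11 fragments against 0, was 1.82. Thus 3 of the 4 HMGS unigenes were at least 4-fold higher in bud than in root, where 26.3% of the 46663 unigenes passed the same rule. HMGS2 and HMGS3 lay far out in this distribution, since 1.48% and 1.58% of the unigenes had an equal or higher ratio of bud to root. HMGS4 passed 4-fold by a narrow margin and 26.2% of the unigenes reached its ratio, while HMGS1, with root at the floor, stayed below 4-fold.

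**Figure D2:**
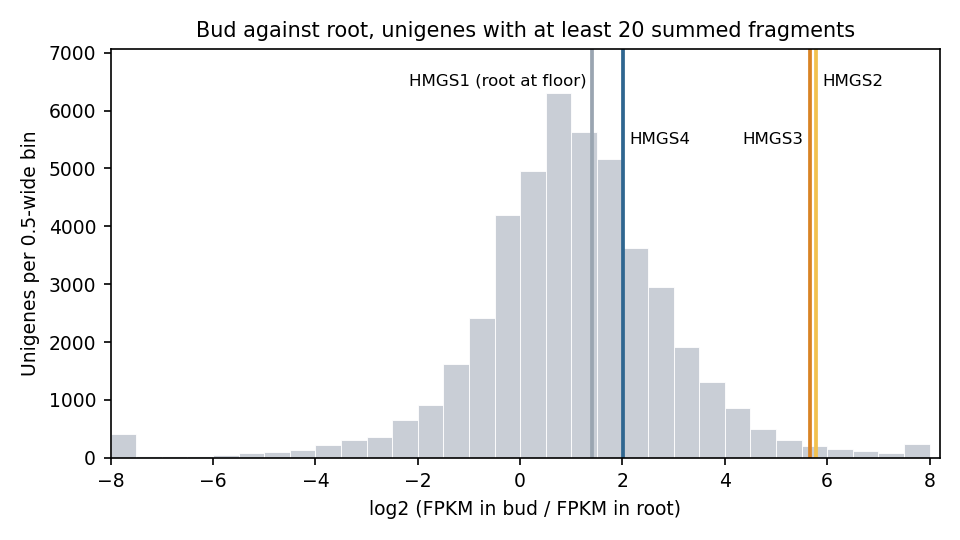
Histogram of log2(FPKM in bud / FPKM in root), in bins of 0.5, for the 46663 unigenes with at least 20 summed fragments; the outermost bins collect all values beyond the axis. Vertical lines mark HMGS4 at 2.01, HMGS3 at 5.66 and HMGS2 at 5.79, the last in the far right tail, and HMGS1 at 1.41 with root set to the floor of 3 fragments.

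The ratios of all unigenes were not centred on 1, because the median unigene was 2.02 times as high in bud as in root by FPKM. Set against this median, HMGS2 was 27.3 times and HMGS3 24.9 times higher in bud than in root, and HMGS4 was 2.0 times higher. For HMGS4 the same calculation gave 1.99 for flower against root and 2.0 for leaf against root. Between the aerial tissues HMGS4 moved as the median unigene did, at 1.0 for bud against flower, 1.07 for bud against leaf and 1.06 for flower against leaf. By these values HMGS4 departed from the median unigene in root alone, where it was lower. The comparisons with root all rest on the same 61 root fragments. Such a departure was common, since 26.2% of all unigenes reached the HMGS4 ratio in bud over root, 25.4% in flower over root and 26.2% in leaf over root. Under TMM the ratio of HMGS4 in bud to root was 2.41, and under TPM it was 3.64, so that 2 of the 4 HMGS unigenes then passed 4-fold, beside 15.2% of all unigenes under TMM and 23.8% under TPM. The TMM factors changed the library totals, on the log2 scale, by 0.36 in bud, 0.23 in flower, -0.21 in leaf and -0.38 in root, which shifts all unigenes alike and leaves the values relative to the median unigene as they are.

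Against flower, the tissue nearest to bud in development, bud differed in the TR40295|c3_g2 pair alone. HMGS2 was 6.09 times (4.34 to 8.75) and HMGS3 4.86 times (4.04 to 5.89) higher in bud. These 2 of 4 unigenes passed 4-fold where 5.61% of all unigenes did. The bud to flower ratio was 1.15 for HMGS4 (0.983 to 1.34, and 0.963 to 1.17 over the other scalings) and 0.840 for HMGS1 (0.345 to 1.99), so neither direction held against counting error.

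Against leaf, HMGS2 was 13.4 times (7.80 to 24.8) and HMGS3 also 13.4 times (9.68 to 19.2) higher in bud. HMGS1 had a ratio of 4.53 from 11 and 2 fragments, with an interval of 0.988 to 42.0 that includes equality. These made 3 of 4 unigenes past 4-fold, against 19.1% of all unigenes. HMGS1 dropped out under TPM, TMM, DESeq2 size factors and a pseudocount of 1, which left 2 of 4 beside 12.2% to 14.3% of all unigenes. HMGS4 was 1.72 times higher in bud than in leaf (1.42 to 2.09), and under TMM the ratio of 1.16 had an interval of 0.959 to 1.41.

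Flower, leaf and root were compared in the same way. HMGS3 was 10.4 times (5.30 to 23.1) and HMGS2 9.06 times (2.89 to 45.8) higher in flower than in root, 2 of 4 unigenes past 4-fold where 22.5% of all unigenes were. HMGS4 was 3.52 times higher in flower than in root (2.67 to 4.71). In flower the level of HMGS1 was 5.39 times that in leaf (1.24 to 48.8), that of HMGS3 2.76 times (1.92 to 4.07) and that of HMGS2 2.19 times (1.17 to 4.36), so that 1 of 4 passed 4-fold beside 14.9% of all unigenes. That 1 was HMGS1, on 14 and 2 fragments, and it was lost under TMM (3.96, 0.910 to 35.9), a pseudocount of 1 and a minimum of 100 fragments. Leaf exceeded root by 4.13 times in HMGS2 (1.15 to 22.4), 3.75 times in HMGS3 (1.78 to 8.82) and 2.35 times in HMGS4 (1.74 to 3.20), again 1 of 4 past 4-fold beside 15.8%. This count was 0 of 4 under TMM, DESeq2 size factors and a pseudocount of 1, and 2 of 4 under TPM. No HMGS unigene was 4-fold higher in the opposite direction of any of these 6 comparisons.

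By FPKM alone all 4 HMGS unigenes were lowest in root, as were 46.5% of the 46663 unigenes, but leaf and root cannot be ordered for HMGS1 with 2 fragments and 0. The full order of bud, flower, leaf and root from high to low was seen in 3 of the 4 and in 14.8% of all unigenes, and for HMGS4, 1 of these 3, the order of bud and flower lay within counting error and turned under TMM without a minimum (0.963). The order of flower and leaf lay within counting error under TPM and TMM for HMGS2 and HMGS4. The tissue index tau, which is 0 for a unigene at the same FPKM in all tissues and 1 for a unigene present in a single tissue, was 0.914 for HMGS2 and 0.900 for HMGS3. Of all unigenes 92.5% and 91.5% had a lower index. HMGS4 had a tau of 0.434, below the median of 0.557 over all unigenes, and HMGS1 had 0.658 from 27 fragments in all, or 0.553 with root at the floor of 3 fragments.

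Because of these unlike profiles, the Trinity gene with the largest share of the HMGS signal differed between tissues. Together the 4 unigenes had an FPKM of 138 in bud, 49.2 in flower, 25.1 in leaf and 8.98 in root. HMGS4 contributed 20.4% of it in bud, 49.7% in flower, 64.9% in leaf and 77.5% in root. HMGS2 and HMGS3 together contributed 76.6% in bud, 40.3% in flower, 31.4% in leaf and 22.5% in root, so they led in bud and HMGS4 led in the other 3 tissues. On fragments, which have an exact binomial (Clopper-Pearson) interval, the HMGS4 share was 62.3% in flower (57.9 to 66.5), 28.2% in bud (25.7 to 30.8), 74.9% in leaf (68.5 to 80.5) and 83.6% in root (73.0 to 91.2).

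**Figure D3:**
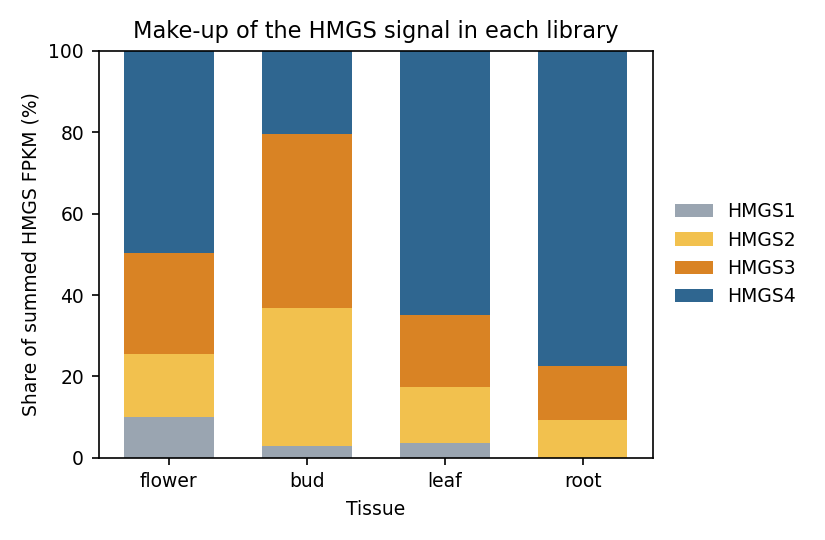
Share of the summed HMGS FPKM (vertical axis, %) held by each of the 4 unigenes in the flower, bud, leaf and root library, stacked to 100%. HMGS4 has 20.4% of the bud bar and 77.5% of the root bar, and HMGS2 and HMGS3 fill 76.6% of the bud bar.

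The same difference can be read from HMGS3 and HMGS4 alone, which do not share a Trinity gene and whose ratio within a library does not depend on the scaling between libraries. HMGS3 stood at 0.498 of the HMGS4 level in flower (0.404 to 0.611), at 2.11 times it in bud (1.84 to 2.41), at 0.270 in leaf (0.185 to 0.387) and at 0.169 in root (0.0738 to 0.342). Only in bud was HMGS3 the more abundant of the pair. The ratio of HMGS3 to HMGS4 was 12.5 times higher in bud than in root (6.05 to 28.9), 7.80 times higher than in leaf (5.29 to 11.7) and 4.23 times higher than in flower (3.31 to 5.42). Between leaf and root the ratio differed by 1.60 times, with an interval of 0.705 to 3.98 that includes equality.

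Within TR40295|c3_g2, in contrast, the point values of the division between the transcripts hardly differed by tissue. The isoform percent of HMGS3, its share of the Trinity gene's abundance, was 55.99% in bud, 61.44% in flower, 55.84% in leaf and 58.22% in root, and HMGS2 held the rest. These values span 5.60 points. Among the 3622 Trinity genes with exactly 2 unigenes and at least 10 fragments in each library the median span was 14.9 points, and 11.1% had a smaller span. The HMGS fragments of this Trinity gene numbered 852 in bud, 177 in flower, 52 in leaf and 12 in root, so its shares in leaf and root are loose. No source used here gives the way in which fragments that match both transcripts were shared out, which leaves the split between HMGS2 and HMGS3 uncertain. The sum of their fragments does not depend on that split. The sum of their FPKM does, because their effective lengths differ (740 and 1592 bases in bud). By summed FPKM the pair was 52.4 times higher in bud than in root (29.8 to 102). It was 13.4 times higher than in leaf (10.1 to 18.1) and 5.34 times higher than in flower (4.53 to 6.31).

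Set among the 6 steps of the MVA pathway, HMGS had the widest ratio of bud to root by summed FPKM, a width that came from HMGS2 and HMGS3. Summed over its 4 unigenes, HMGS was 15.4 times higher in bud than in root (12.1 to 19.8), 5.49 times higher than in leaf (4.75 to 6.38) and 2.80 times higher than in flower (2.53 to 3.12). The bud to root ratio was 3.97 for MVDD, 2.95 for MVK, 1.45 for PMK, 1.42 for AACT and 0.779 for HMGR. Of the 13 unigenes of these other steps, 3 were at least 4-fold higher in bud than in root, AACT1, AACT2 and MVDD2, and of the 21 MEP pathway unigenes, 1. The first count is a share near the 26.3% of all unigenes. The median bud to root ratio was 1.30 over the 13, beside 2.02 over all unigenes. The 4 HMGS unigenes shared no common level. HMGS2 and HMGS3, of the same Trinity gene, were at 55.2 and 50.4, HMGS4 at 4.04, and HMGS1 at 2.66 with root at the floor. The AACT sum was also mixed, with AACT1 at 35.4, AACT2 at 7.63, AACT3 at 0.787 and AACT4 at 0.864. Under TMM the HMGS sum in bud was 9.19 times that in root, and with 1 unigene per Trinity gene, the longest, it was 11.2 times.

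**Figure D4:**
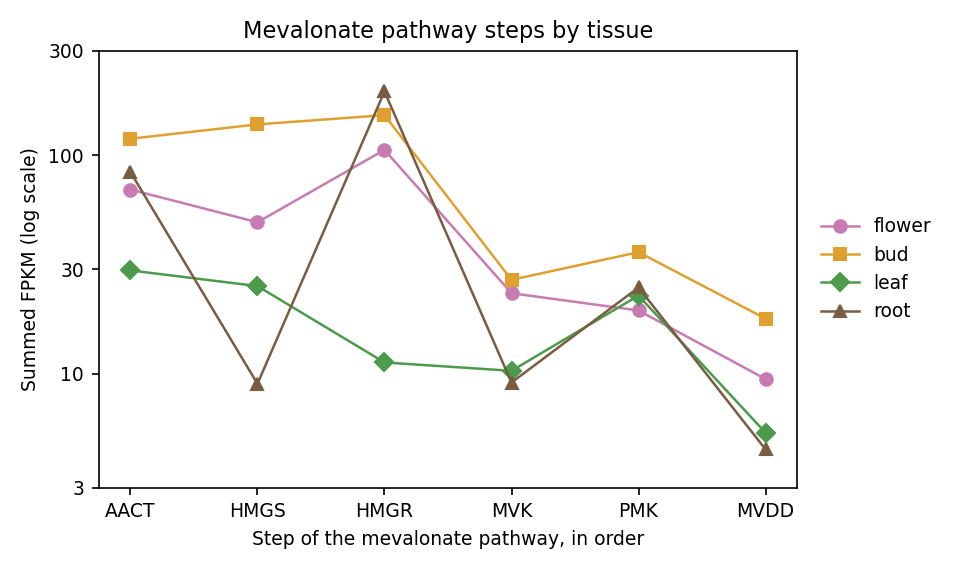
Summed FPKM (vertical axis, log scale) of the unigenes of each MVA pathway step, in pathway order, with 1 line per tissue library. The HMGS points are spread from 8.98 in root to 138 in bud, and the root line drops at HMGS between AACT (83.6) and HMGR (195).

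In root, HMGS was low beside its direct neighbours in the pathway. The summed root FPKM was 83.6 for AACT, 8.98 for HMGS and 195 for HMGR, and HMGS made up 2.75% of the FPKM of the 6 steps there. In bud the 3 steps were at 119, 138 and 152, and HMGS made up 28.2%. In leaf the order was AACT at 29.7, HMGS at 25.1 and HMGR at 11.2, with an HMGS share of 24.1%, and in flower it was 69.5, 49.2 and 106, with a share of 17.8%.

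The ratio of HMGS to HMGR within a library was 0.466 in flower (0.419 to 0.519), 0.907 in bud (0.839 to 0.981), 2.24 in leaf (1.76 to 2.86) and 0.0460 in root (0.0358 to 0.0582). HMGR in root was thus 21.7 times the level of HMGS, and leaf was the tissue in which HMGS stood above HMGR. The direction in flower and bud rests on how transcripts were summed, since HMGR has 3 unigenes of 1 Trinity gene, and when each Trinity gene was represented by its longest unigene HMGS was 1.28 times HMGR in flower and 2.23 times in bud. Leaf and root kept their directions, at 3.74 and 0.131. With all unigenes summed, the ratio of HMGS to HMGR was 48.6 times higher in leaf than in root (34.4 to 68.9). It was 19.7 times higher in bud than in root (15.4 to 25.6). These intervals do not cover the choice of how transcripts were summed.

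HMGS was at 0.708 of the AACT level in flower (0.620 to 0.809), 1.16 in bud (1.06 to 1.28), 0.848 in leaf (0.680 to 1.06) and 0.107 in root (0.0822 to 0.139). With the longest unigenes only, the flower ratio was 1.47 and the leaf ratio 1.38, so HMGS then stood above AACT in both. The later kinases and the decarboxylase were mostly below HMGS. HMGS was between 2.11 times MVK in flower and 5.14 times MVK in bud, but 0.987 of it in root, with an interval of 0.681 to 1.44. It was 3.84 times PMK in bud and 0.363 of PMK in root (0.272 to 0.479), and it exceeded MVDD in all 4 libraries, from 2.0 times in root to 7.74 times in bud. Relative to each of the 5 other steps HMGS was higher in bud than in root, by 3.88 times against MVDD (2.44 to 6.06), 5.21 times against MVK (3.46 to 7.80), 10.6 times against PMK (7.78 to 14.5) and 10.8 times against AACT (8.22 to 14.4).

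**Figure D5:**
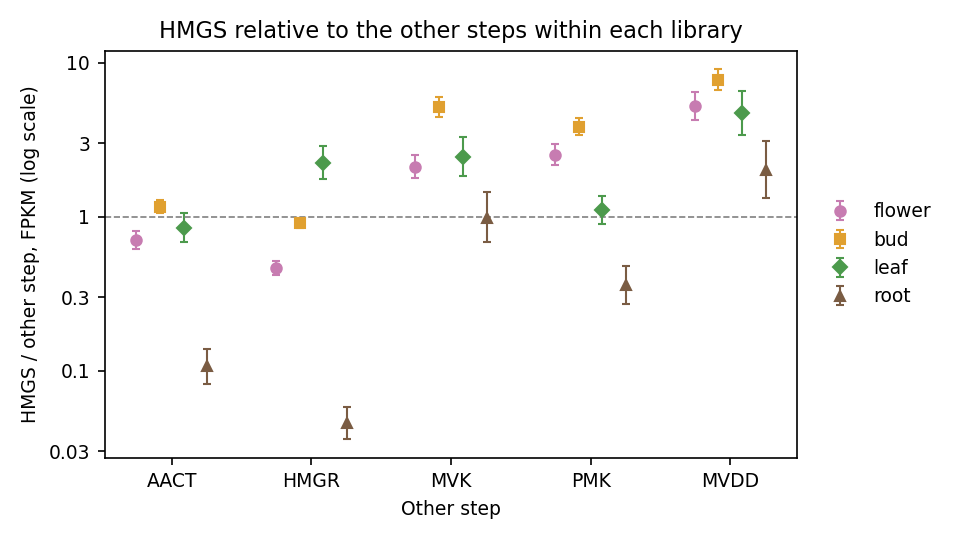
Summed FPKM of HMGS divided by that of each other MVA step within the same library (vertical axis, log scale; the dashed line marks equal levels), with 1 symbol per tissue. Bars are 95% intervals for counting error; root is the lowest symbol at every step, from 0.0460 against HMGR to 2.0 against MVDD.

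The tissue profiles were also compared as the shares of FPKM that each unigene had in flower, bud, leaf and root, by Euclidean distance over the 4 tissues. HMGS3 had 76.9% in bud, 15.8% in flower, 5.73% in leaf and 1.53% in root, and HMGS2 had 79.5%, 13.1%, 5.96% and 1.44%. Their distance was 0.0381, and of 22459 other unigenes with at least 100 fragments 14 were closer to HMGS3 than HMGS2 was. HMGS4 was at 0.466 from HMGS3, and 19.6% of these unigenes were closer to HMGS3 than that. Ranked from HMGS4 instead, 82.3% of the other unigenes were closer to HMGS4 than HMGS3 was. Among the 48 other pathway unigenes of the study, the one nearest to both HMGS3 (0.0787) and HMGS2 (0.109) was AACT1, a thiolase transcript of the step just before HMGS. Its FPKM was 47.2 in bud, 13.6 in flower, 0.472 in leaf and 1.33 in root, 35.4 times higher in bud than in root on 244 and 5 fragments. Next came KS3, a kaurene synthase, and AACT2.

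The unigene nearest to HMGS4 was MVK1 (0.0802), followed by GGPPS7 and GGPPS3, which belong to the geranylgeranyl diphosphate synthases. HMGS1 was nearest to GGPPS7 (0.151), GGPPS3 and DXS6, a synthase of the first MEP step. Over all unigenes with at least 100 fragments the closest profiles were those of TR48476|c2_g2_i4 and TR38940|c0_g1_i3 for HMGS3, TR45494|c1_g1_i1 and TR42539|c1_g3_i2 for HMGS2, TR30733|c0_g1_i1 and TR46497|c0_g1_i1 for HMGS4, and TR35830|c0_g1_i1 and TR32641|c1_g3_i4 for HMGS1, which are given by identifier only. With 4 libraries, such likeness is a description and carries no test.

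Trinity placed 7 other unigenes in the same read cluster as HMGS2 and HMGS3, under other Trinity genes. TR40295|c3_g1_i1, a fragment of 264 bases, had 4 fragments in flower (FPKM 5.75, 1.57 to 14.7) and none in bud, leaf or root, where the floor of 3 fragments is equal to 4.62, 5.52 and 6.44. It was therefore not detectably higher in flower. The study's pathway assignment lists this fragment with ketone body metabolism and terpenoid backbone synthesis. The 6 unigenes of TR40295|c2_g1, which carry no annotation here, summed to an FPKM of 21.5 in bud, 9.82 in flower, 4.40 in leaf and 24.9 in root. Unlike HMGS2 and HMGS3, their sum was not lower in root than in bud. Single unigenes went both ways, as TR40295|c2_g1_i7 had an FPKM of 5.58 in bud and 3.84 in root. TR40295|c2_g1_i5 had 6.68 in bud and 9.59 in root. This sum was not computed under the other scalings.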

How the data were processed

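One RNA-seq library of each tissue was measured. The authors assembled strand-specific paired reads with Trinity, removed redundancy with CD-HIT-EST, aligned with Bowtie 2 and ran RSEM, and the submitters' processing notes also name Trimmomatic. They deposited, for each library, expected counts of fragments (whole numbers, not normalized), TPM, FPKM and the isoform percent of each unigene. A joint FPKM table held the same values.

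FPKM was recomputed without rounding for ratios (at most 0.0506% off above an FPKM of 10). Intervals are exact at 95% (Poisson for a level, conditional binomial for a ratio, Clopper-Pearson for a share); for summed unigenes the interval of the summed fragments was scaled to the FPKM ratio. PCR copies are not independent molecules. In ratios a count of 0 was set to 3 fragments, and the tissue index and the tissue shares use the deposited 0. Members, pathway lists and rules were chosen with earlier results of these data known. Named unigenes are the HMGS members, their Trinity clusters, the 3 nearest pathway profiles and the 2 nearest of all unigenes. AACT1, AACT2 and MVDD2 are named to complete a count. The pathway names are those of the study.

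Alternatives were TPM, TMM (edgeR 4.0.16), DESeq2 1.42.0 size factors, full lengths, fragment sums, longest unigenes, minimums of 10 and 100, 2-fold and 8-fold, and pseudocounts of 0.1 and 1. The tissue index of HMGS1 with its 0 at 3 fragments was added after seeing the data. Procedures were tested on simulated data. Software was Python 3.11.15, numpy 2.4.6, scipy 1.17.1, pandas 2.3.3, matplotlib 3.10.9 and R 4.3.3.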

Additional observations from a re-analysis of the deposited data

How the results depend on the processing

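Of 115 alternative values of single HMGS unigene ratios, 97 moved by less than counting error and 18 by more, and for 0 was a direction that counting error supported turned. The HMGS sum in bud over root, 15.4 by FPKM, was 9.19 under TMM, 9.57 under TMM without a minimum, 8.71 under DESeq2 size factors, 11.98 on fragments and 11.2 with the longest unigenes. In bud over flower, 2.80 by FPKM, it was 2.35 under TMM without a minimum, 2.46 under DESeq2 size factors and 2.20 with the longest unigenes. The HMGS3 share of its Trinity gene was 77.4% of fragments in flower, 73.2% in bud and 73.1% in leaf, since fragments are not divided by length. With the longest unigenes HMGS over HMGR was 1.28 in flower and 2.23 in bud, both turned, 3.74 in leaf and 0.131 in root, and HMGS over AACT turned to 1.47 in flower. Of all unigenes, 12277 were 4-fold higher in bud than in root by FPKM, 7092 under TMM, 6736 under DESeq2 size factors, 5273 with a minimum of 100 fragments, 23083 at 2-fold and 5690 at 8-fold. Counts below 15 fragments, as for HMGS1 throughout, HMGS2 in leaf and root and HMGS3 in root, limit those ratios. No paired analysis was possible because each tissue has 1 library, and no library could be left out of a comparison of tissues.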
